A study of Arabidopsis thaliana with 6 samples.

Results

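Alternative 5′ splice sites were examined as a class: 290 regions that the authors labelled as alternative 5′ splice site events, a label for the stretch between an exon's upstream (proximal) and downstream (distal) 5′ splice site. Proximal and distal are counted here from the start of the exon. Counted from the 3′ splice site of the intron, the names would be swapped. The authors' junction table listed 1755 regions with this label, 994 of them had reads on the junction that leaves the region out, and 297 had reads on both that junction and a junction that keeps the region. A region entered when the junction that leaves it out averaged at least 5 reads in each genotype and the junctions that keep it averaged at least 5 reads in either genotype, which 290 regions in 270 genes met. They are part of 1095 splicing events that met the same read minimum, the others being 664 regions labelled as alternative 3′ splice sites and 141 skipped exons. For each library the included share was calculated, which is the percentage of the junction reads that keep the region in the mRNA.

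The study compared *prp40c-1* mutants, which carry a T-DNA insertion in PRP40C (AT3G19840), with wild-type plants, both in the Col-0 ecotype of *Arabidopsis thaliana*. There were 3 libraries per genotype, made from poly(A) RNA of whole seedlings that were 2 weeks old, harvested after 10 to 14 days at 22°C under continuous white light, without any treatment. The mutant group stands for 1 T-DNA allele, and each library is a mixture of all seedling tissues, so that a change in splicing within a cell type and a change in the mix of cell types cannot be told apart.

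The 5′ splice site, or donor, is the exon-intron border that the U1 small nuclear ribonucleoprotein recognises first, by base pairing between the U1 RNA and the last exon bases and first intron bases. Introns usually begin with GT, and rarely with GC. Where 2 donors compete for 1 acceptor, use of the distal donor leaves the region between them in the exon, and use of the proximal donor removes it with the intron. In yeast, PRP40 is a component of the U1 particle, and the Arabidopsis family has the members PRP40A, PRP40B and PRP40C. These facts are background and were not measured here.

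The labels of the regions were checked against the coordinates of their junctions and the strand of the gene. In 224 of the 290 regions the competing junctions shared their acceptor and differed in the donor, as the label says. In 55 regions they shared the donor and differed in the acceptor, which is the arrangement of an alternative 3′ splice site, and in 11 regions they shared neither end. The disagreement lay in the rows that carry an asterisk in the authors' label: all 80 of these lie in genes on the minus strand, and 18 were donor pairs, 54 were acceptor pairs and 8 shared no end. Of the 210 regions without an asterisk, 206 were donor pairs. The text therefore gives counts for all 290 regions, and describes donors only in the 199 donor pairs with a single junction on each side. In all 199 the included junction had the distal donor, and all 199 acceptors ended in AG. The distal donor began with GT in 196 pairs and with GC in 3, and the proximal donor began with GT in 190 and with GC in 9.

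The following donors carry the results described below. Each line runs from the 3 exon bases before the proximal donor to the 6th intron base after the distal donor, 5′ to 3′, and the capitals mark the first dinucleotide of each of the competing introns. The first set shows pairs whose donors are 3 or 4 bases apart, so that the same bases serve as exon for one donor and as intron for the other. Sequences are from the RefSeq assembly TAIR10.1.
UEV1D-4 (chr3:19495260-19495271, minus strand, coding): aacGTaGTtata
ATB BETA (chr1:6096207-6096218, minus strand, coding): gtgGTaGTtgta
CKB3 (chr3:22270987-22270998, minus strand, coding): aagGCaGTatcc
CKB4 (chr2:18427194-18427205, minus strand, coding): aagGCaGTatcc
AT3G07760 (chr3:2476570-2476582, plus strand, 5′ UTR): tcgGTagGTattt
EDA3 (chr2:14709806-14709818, plus strand, 3′ UTR): aagGTagGTatag
AT1G10590 (chr1:3503364-3503376, minus strand, 5′ UTR): aaaGTacGTgagt

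The second set shows longer regions, among them the region with the most junction reads (RCA) and regions with the smallest p-values.
RCA (chr2:16571174-16571193, minus strand, coding): acgGTaaaacagagGTttga
CA2 (chr5:4759211-4759224, plus strand, 5′ UTR): ttgGTataGTatat
BBC1 (chr3:18167285-18167299, minus strand, coding): aagGTcaagGTaatc
AT3G01310 (chr3:101508-101534, minus strand, coding): aagGTgaaatgcggctccgagGTtctg
AT1G72740 (chr1:27381141-27381167, minus strand, coding): aagGTtagcaccttcaaatctGTaagt
PIN7 (chr1:8182200-8182220, minus strand, coding): atgGTgaaaacaaagGTtttt
In AT4G19160, whose donors are 26 bases apart in the 5′ UTR, 8 of the 9 bases scored are the same at both donors.
AT4G19160 distal donor (chr4:10478345-10478353, plus strand): aagGTataa
AT4G19160 proximal donor (chr4:10478319-10478327, plus strand): aagGTatat

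The targeted gene was lower in the mutant libraries. PRP40C had 451, 513 and 429 counts in the *prp40c* libraries, against 947, 1068 and 917 in the wild-type libraries, a log2 fold change of -0.97 (SE 0.11, adjusted p = 2.1e-05, edgeR). These counts are per gene and do not separate full-length from other transcripts. By RT-PCR the paper reports no wild-type mRNA in the mutants, which its supplement words as strongly reduced full-length mRNA. Library totals were between 34200225 and 40919516 counts on genes. Of the tissue markers, the leaf genes RBCS1A and CAB2 averaged 11189 and 5110 CPM in *prp40c* and 12506 and 4089 CPM in wild type, and the root genes CASP1 and EXPA7 were read in every library. The flower genes AP1 and AG had 0 to 3 counts per library and the seed storage gene CRA1 had 2 to 19. Reads on the 290 regions numbered 47932 to 55454 included and 43852 to 49954 excluded in *prp40c*, and 52622 to 61370 included and 50282 to 55010 excluded in wild type.

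Use of the competing sites covered the whole range. In wild type the mean included share was below 10% in 29 regions, from 10 to 50% in 130, from 50 to 90% in 98 and above 90% in 33. The median over the regions was 47.7, 46.3 and 46.5% in the *prp40c* libraries and 46.6, 46.1 and 44.7% in the wild-type libraries, so the medians of the genotypes overlapped. The mean share was higher in *prp40c* in 133 regions and lower in 157, with a median difference of -0.27 percentage points. The median absolute difference was 3.75 points. The median SD between replicates was 5.01 points in *prp40c* and 4.24 points in wild type. This SD is of single libraries and the difference is between means of 3, so their sizes cannot be compared directly. Over all 1095 events the median absolute difference was 3.09 points. For the 46 regions selected by the naming rules given below, the exact 95% binomial interval of a single library's share was 0.147 to 47.0 points wide. Its median width was 10.6 points, and regions named after their values were seen are not in it. These intervals cover counting error only.

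The question of the comparison was which donor choices differ between *prp40c* and wild type. None of the 290 regions passed the thresholds (adjusted p below 0.15 and an absolute log2 change above 0.58, edgeR quasi-likelihood test of included against excluded reads), beside 2 of the 1095 events tested together (0.183%). The smallest adjusted p among the 290 was 0.191. Without adjustment, p was below 0.05 in 33 regions, 12 with a higher and 21 with a lower included share in *prp40c*, which is 11.4% of the regions beside 7.4% of all events. The background by direction was 3.2% higher and 4.2% lower. Of the 21 lower regions, 5 met the minimum for included reads through wild type alone and are named below. With DESeq2, 1 region passed the thresholds (AT4G19160) and 22 had an unadjusted p below 0.05. The individual regions described below are therefore the leading candidates of a comparison in which no region passed.

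All 33 regions with an unadjusted p below 0.05 were donor pairs, 33 of 224 (14.7%), and none of the 55 acceptor pairs with the same label was among them. Under the other label the 19 donor pairs gave 4 such regions and the 635 acceptor pairs gave 30, or 4.72%. The difference between donor and acceptor pairs was not tested. The libraries of the 2 genotypes did not overlap in 57 of the 290 regions, 26 with all *prp40c* libraries above and 31 with all below the wild-type libraries. That is 19.7% of the regions, beside 14.4% of all events (6.76% above and 7.67% below). Among the 33 regions, 27 did not overlap, 11 above and 16 below, beside 68 of the 81 such events among all tested (33 above and 35 below). The overlap and the p-value come from the same reads, so this count adds nothing to the p-value. Differences beyond 10 points were found in 26 regions upward and 25 downward, 17.6% of the regions beside 12.6% of all events.

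**Figure D1:**
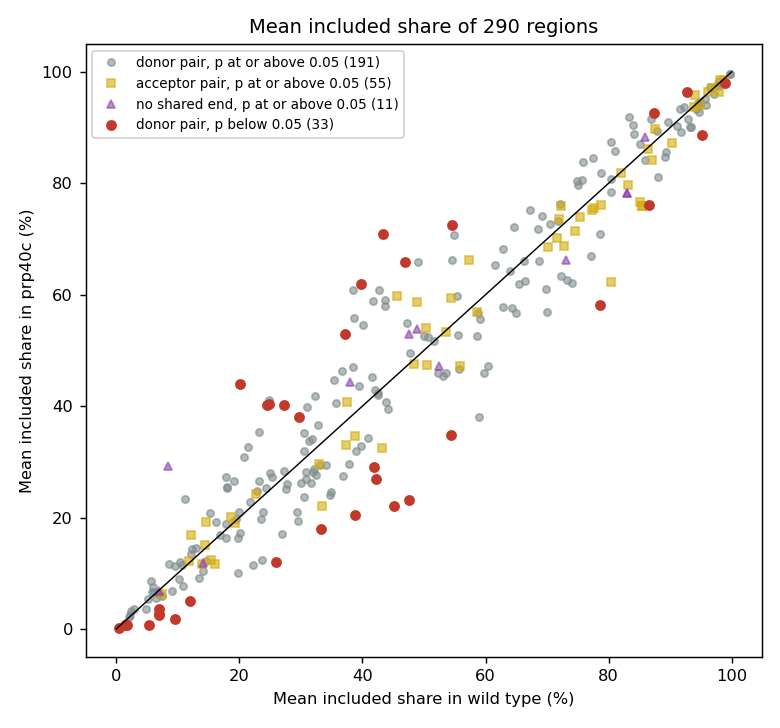
Mean included share (%) of each of the 290 regions in *prp40c* (vertical axis) against wild type (horizontal axis), 3 libraries each, with the line of equal shares. Symbols separate donor pairs, acceptor pairs and regions whose junctions share no end. The 33 regions with an unadjusted p below 0.05 (red) are all donor pairs, and lie on both sides of the line.

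Regions with the higher included share in *prp40c* were led by AT4G19160, a transglutaminase family gene. Its distal donor in the 5′ UTR took 40.9, 41.01 and 50.3% of the junction reads in the *prp40c* libraries, against 14.5, 23.8 and 21.7% in the wild-type libraries, from 139 to 272 reads per library. Every mutant library was above every wild-type library, and the means were 44.05 ± 5.38% in *prp40c* and 20.02 ± 4.86% in wild type (SD, n = 3 each). The log2 change of included over excluded reads was 1.65 (SE 0.33, unadjusted p = 0.000525, adjusted p = 0.191, edgeR). Without any one library the log2 change stayed between 1.42 and 1.82, with an unadjusted p below 0.05 each time. Total expression of this gene had a log2 fold change of 0.51 (adjusted p = 0.00014), under the fold threshold used for genes.

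AT5G50665, an uncharacterized gene with a region of 72 bases in the 5′ UTR and several junctions summed, had included shares of 69.8, 68.8 and 58.8% in *prp40c*, against 50.3, 47.6 and 42.9% in wild type. AT1G52100, a gene of the mannose-binding lectin family, had 56.4, 73.5 and 82.7% in *prp40c*, against 50, 40.6 and 39.5% in wild type, with 43 to 64 reads per library. It showed the largest difference of the 290 regions, 27.5 points, at a low depth, and the lowest mutant library was 6.36 points above the highest wild-type library. The log2 changes were 1.15 (SE 0.31) and 1.69 (SE 0.57), and the adjusted p-values were 0.388 and 0.502 (edgeR). Without *prp40c* replicate 3, the unadjusted p of AT1G52100 was 0.0509.

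The pairs 3 bases apart in UEV1D-4 and ATB BETA both lay on this side. UEV1D-4, a ubiquitin-conjugating enzyme variant that works with an active conjugating enzyme, used its distal donor in 37.1, 39.5 and 37.4% of reads in *prp40c* and in 30.7, 31.7 and 26.7% in wild type, from 652 to 861 reads per library. ATB BETA, a regulatory B subunit of protein phosphatase 2A, used it in 36.7, 36.6 and 47.6% in *prp40c* and in 23.3, 28.2 and 30.4% in wild type. In both genes the choice adds or removes 3 coding bases, and the distal donor is preceded by the GTA that forms the start of the other intron. The log2 changes were 0.54 (SE 0.19) and 0.83 (SE 0.32), with adjusted p-values of 0.544 and 0.584 (edgeR).

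CBL and TGA1 used the distal donor in most transcripts of both genotypes. CBL, cystathionine beta-lyase of methionine synthesis, had distal shares of 90.2, 94.7 and 92.9% in *prp40c*, against 87.1, 86.5 and 88.4% in wild type. TGA1, a bZIP transcription factor of the defence response, had 96.7, 95.3 and 97.2% in *prp40c*, against 94.2, 92.5 and 91.5% in wild type. The minor, proximal site was thus read less in every mutant library, by 5.27 points in CBL and 3.65 points in TGA1 on average. The log2 changes were 0.86 (SE 0.30) and 1.05 (SE 0.38), with adjusted p-values of 0.511 and 0.542 (edgeR). The unadjusted p was below 0.05 in 5 (CBL) and 3 (TGA1) of the 6 fits that left out a library.

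The remaining 3 regions chosen for higher shares lay in 5′ UTRs. BEL10, a BEL1-like homeodomain gene, had 48.8, 54.0 and 55.8% in *prp40c*, against 41.4, 38.2 and 31.7% in wild type. SOS4, a pyridoxal kinase known from salt-sensitive mutants, had 31.7, 36.8 and 52.0% in *prp40c*, against 17.9, 25 and 30.6% in wild type, and its closest libraries of the 2 genotypes differed by 1.12 points. AT4G10925, a gene of the nuclear transport factor 2 family, had 61.3, 64.3 and 60% in *prp40c*, against 29.4, 40 and 50% in wild type, with 30 to 62 reads per library. The adjusted p-values of these regions were 0.589, 0.625 and 0.589 (edgeR), and each lost its unadjusted p below 0.05 in 4 of the 6 fits that left out a library.

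Among the regions with the lower included share in *prp40c*, AT3G07565, annotated as a histone H2A deubiquitinase, had the smallest p. Its distal donor, 27 coding bases downstream, was a minor site in both genotypes and had 5 of 159, 1 of 161 and 2 of 146 reads in *prp40c*, against 15 of 107, 9 of 126 and 10 of 135 in wild type. The shares were 1.71 ± 1.3% in *prp40c* and 9.52 ± 3.9% in wild type (SD, n = 3 each), with no overlap. The log2 change was -2.51 (SE 0.61, unadjusted p = 0.00172, adjusted p = 0.34, edgeR). AT3G07565 met the read minimum for included reads through wild type alone, the genotype with the higher share. Its rank and lack of overlap are therefore not independent of how it entered.

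AT1G72740 and AT3G01310 both carry a region of 18 coding bases, which keeps the reading frame. AT1G72740, a homeodomain-like DNA-binding gene, had distal shares of 13.01, 20.9 and 35.7% in *prp40c*, against 44.1, 45.8 and 52.8% in wild type, a mean difference of -24.4 points. AT3G01310, annotated as a phosphoglycerate mutase-like family gene, had 11.7, 12.2 and 11.9% in *prp40c*, against 21.3, 21.5 and 34.9% in wild type. The mutant libraries of AT3G01310 lay within 0.463 points of each other, while those of AT1G72740 ranged over 22.7 points. The log2 changes were -1.65 (SE 0.45) and -1.37 (SE 0.37), each with an adjusted p of 0.388 (edgeR). In both genes the proximal donor had the better match to the donor consensus, with scores of 8.37 and 7.14 against 4.92 and 3.54 at the distal donor (log2 units, defined below).

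AT2G04690, of the pyridoxamine 5′-phosphate oxidase family, had a region of 35 coding bases with included shares of 15.9, 25.9 and 11.8% in *prp40c*, against 33.8, 31.5 and 34.6% in wild type. AT1G11360, of the adenine nucleotide alpha hydrolase-like family, used a distal donor in the 3′ UTR in 3.03, 5.41 and 6.38% of reads in *prp40c*, against 11.3, 14.4 and 9.93% in wild type. AT1G09060, which encodes the JmjC protein JMJ24, had 74.6, 75.2 and 78.7% in *prp40c*, against 85.7, 87.3 and 86.7% in wild type. In JMJ24 the replicates were close, with SDs of 2.2 points in *prp40c* and 0.809 points in wild type. Its unadjusted p (edgeR) was below 0.05 in only 3 of the 6 fits that left out a library. The 3 adjusted p-values were 0.502, 0.511 and 0.584 (edgeR).

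In several regions of this side the included site was rare. GR1, glutathione reductase, had 4 of 173, 0 of 135 and 0 of 93 included reads in *prp40c*, against 8 of 169, 9 of 161 and 9 of 167 in wild type. Without *prp40c* replicate 1, the one mutant library with such reads, the log2 change of -2.39 became -5.67, a value that depends on the prior count because both other mutant libraries are at 0. By the limit of 3 counts that a count of 0 allows, the zeros allow shares of up to 2.22 and 3.23% (exact 95% binomial upper bounds 2.7 and 3.89%), and in the authors' table every listed junction has at least 6 reads in all libraries of one genotype, while 0 occurs in 164 entries and 1 in only 40, so that a listed 0 may not be a count. WLIM2b, a LIM domain gene annotated as a zinc finger factor, had 3.53, 3.27 and 3.90% in *prp40c*, against 7.49, 4.17 and 9.21% in wild type. CA2, a carbonic anhydrase, had 5, 5 and 3 reads from its distal donor among 3577 to 3898 in *prp40c*, against 8, 22 and 18 among 3780 to 4685 in wild type. That is 0.116 ± 0.031% in *prp40c* and 0.379 ± 0.163% in wild type (SD, n = 3 each), a log2 change of -1.65 (SE 0.45, adjusted p = 0.388, edgeR) on a site that few transcripts use. AT1G11360, AT3G07565, CA2, GR1 and ECT4, a YTH domain gene, are the 5 regions that met the read minimum for included reads through wild type alone. They could enter only with more included reads in wild type, and without them 16 of the 21 lower regions remain. The authors' own limit of 6 reads can also admit a junction through a single genotype. Regions that entered in that way were not counted, so the remaining 16 may still hold some of them.

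A further 11 regions had an unadjusted p below 0.05 and are named after their values were seen. On the higher side, the tetraspanin gene TET10 had 79.0, 77.5 and 60.9% in *prp40c*, against 61.1, 54.8 and 47.8% in wild type, where *prp40c* replicate 3 fell just inside the wild-type range. AT3G13800, of the metallo-hydrolase/oxidoreductase family, had 39.6, 37.5 and 43.8% in *prp40c*, against 20, 30.8 and 23.9% in wild type, for donors 4 bases apart. On the lower side, GBF3, a bZIP factor that binds the G-box, had 30.4, 27.5 and 29.1% in *prp40c*, against 44.5, 36.9 and 44.1% in wild type. PSD, an exportin of transfer RNA, had 54.7, 69.6 and 50% in *prp40c*, against 78.8, 70.8 and 86.5% in wild type.

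The thiolase gene AACT1 had 29.0, 26.8 and 10.3% in *prp40c*, against 35.1, 41.5 and 58.9% in wild type. AT1G08040, with donors 4 bases apart, had 20, 17.5 and 23.9% in *prp40c*, against 44.7, 41.2 and 30.6% in wild type, and AT5G05670, annotated as binding the signal recognition particle, had 28.9, 29.1 and 22.9% in *prp40c*, against 46.4, 34.5 and 45.7% in wild type. None of the mutant libraries of these 3 genes reached the wild-type range. In AT3G01850, of the aldolase-type TIM barrel family, the genotypes overlapped, with 48.1, 24.7 and 31.4% in *prp40c*, against 57.9, 46.0 and 59.5% in wild type. RAB8, a small GTPase, had 2.11, 1.71 and 3.77% in *prp40c*, against 7.33, 10.4 and 3.26% in wild type, and the ribosomal protein gene AT3G13120 had 1.27, 0.149 and 0.712% in *prp40c*, against 2.04, 1.14 and 1.86% in wild type, both with overlap. ECT4 had 0 of 183, 4 of 127 and 5 of 106 included reads in *prp40c*, against 12 of 154, 12 of 144 and 8 of 166 in wild type. The absolute differences of the 33 regions ran from 0.262 to 27.5 points, with a median of 12.96.

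**Figure D2:**
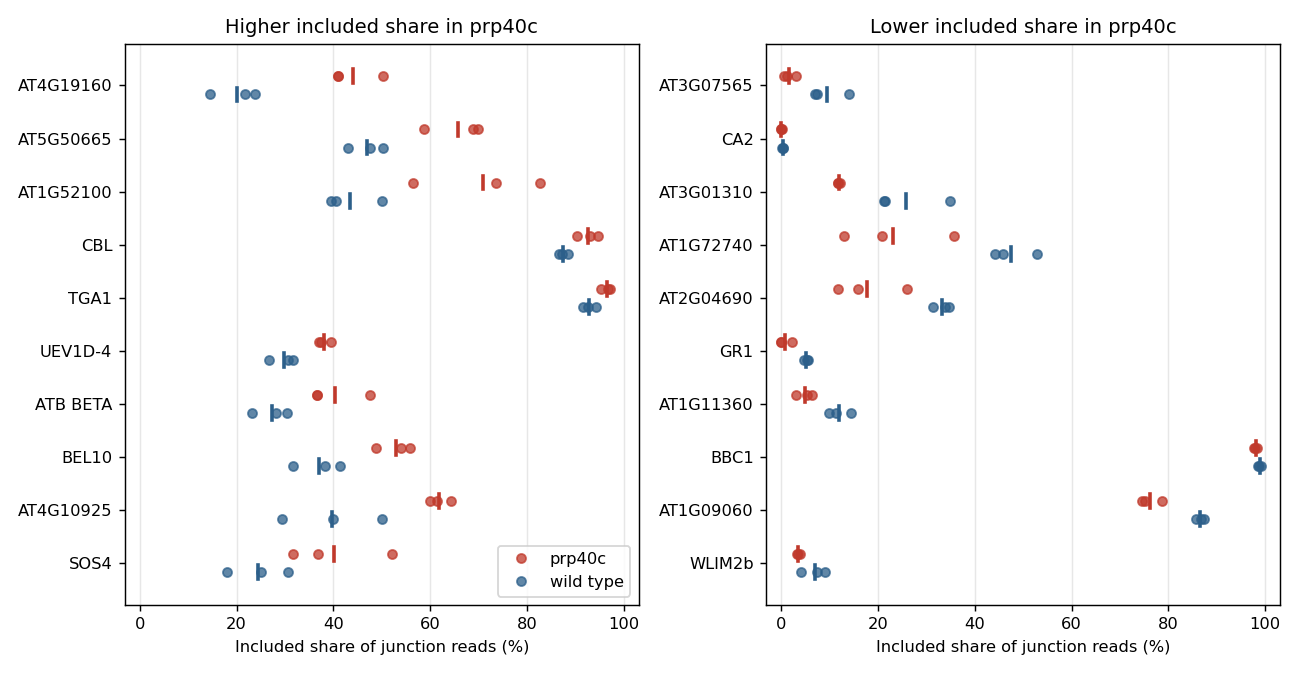
Included share of junction reads (%) in each library for the 10 regions with the smallest unadjusted p in each direction among those whose genotypes did not overlap, from the smallest p at the top. Points are libraries (*prp40c* above, wild type below in each row) and bars are means of 3. AT3G07565, CA2, GR1 and AT1G11360 met the read minimum for included reads through wild type alone. In AT4G19160 the mutant libraries lie between 40.9 and 50.3% and the wild-type libraries between 14.5 and 23.8%.

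Regions with the most junction reads gave the most precise shares. RCA encodes Rubisco activase, the chloroplast protein that frees Rubisco of inhibitory sugar phosphates, and its alternative splicing is known to give a longer and a shorter protein. Its distal donor, 11 bases downstream, took 50.2, 49.1 and 49.3% of 14254 to 18430 reads in *prp40c*, against 47.6, 47.4 and 48.4% of 19186 to 24161 reads in wild type. The genotypes did not overlap, and the difference was 1.72 points, with an SD between replicates of 0.56 points in each genotype. The log2 change was 0.10 (SE 0.19, adjusted p = 0.937, edgeR). The fit takes its spread partly from all events tested, so this SE is not the spread of the RCA replicates alone. APE2, the chloroplast triose phosphate translocator, had 2.61, 3.57 and 3.57% in *prp40c*, against 2.39, 2.60 and 2.42% in wild type. BBC1, a ribosomal protein L13 gene, had 98.3, 97.8 and 98.0% in *prp40c*, against 98.5, 98.8 and 99.2% in wild type, a log2 change of -0.80 (SE 0.28, adjusted p = 0.541, edgeR).

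MT3, a metallothionein, used the included junctions in 99.7% of reads in *prp40c* and 99.8% in wild type. The neighbouring histone H3 genes AT4G40040 and AT4G40030 had their alternative donors in the 5′ UTR and used the distal one rarely. AT4G40040 had 0.334, 0.809 and 0.734% in *prp40c*, against 1.44, 1.93 and 0.657% in wild type, and AT4G40030 had 1.16, 1.33 and 0.555% in *prp40c*, against 0.756, 0.787 and 3.23% in wild type. In both genes the libraries of the genotypes overlapped, and AT4G40040 is the last of the 33 regions with an unadjusted p below 0.05 (adjusted p = 0.589, edgeR). The 8 most-read regions also included the pair of AT1G67700 that lies 3 bases apart, where 99.6, 99.6 and 99.3% of reads in *prp40c* and 100, 100 and 99.3% in wild type were distal. The second region of AT1G67700, 14 bases long, had 54.2, 52.8 and 50.4% in *prp40c*, against 52.1, 48.3 and 51.5% in wild type, so that both donors were in even use.

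The distance between the donors was compared by place in the transcript. Over the 199 pairs the median distance was 18 bases (range 2 to 2172). The region was coding in 94 pairs, in the 5′ UTR in 90 and in the 3′ UTR in 13, and intronic in the RefSeq annotation in 2. The median distance was 12 bases in coding regions, 36 in 5′ UTRs and 11 in 3′ UTRs. A distance that is a multiple of 3 keeps the reading frame, and it was found in 56 of the 94 coding pairs (59.6%), in 23 of 90 pairs in 5′ UTRs (25.6%) and in 3 of 13 in 3′ UTRs (23.1%). Among the acceptor pairs of all tested events, 335 of 427 coding pairs (78.5%) and 84 of 201 UTR pairs (41.8%) were multiples of 3. All 13 pairs with a distance of 3 bases were coding. In coding pairs the median wild-type included share was 43.1% for multiples of 3 and 54.5% for the other distances, and it was 48.4% over all coding pairs, against 32.4% in 5′ UTRs and 33.2% in 3′ UTRs.

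**Figure D3:**
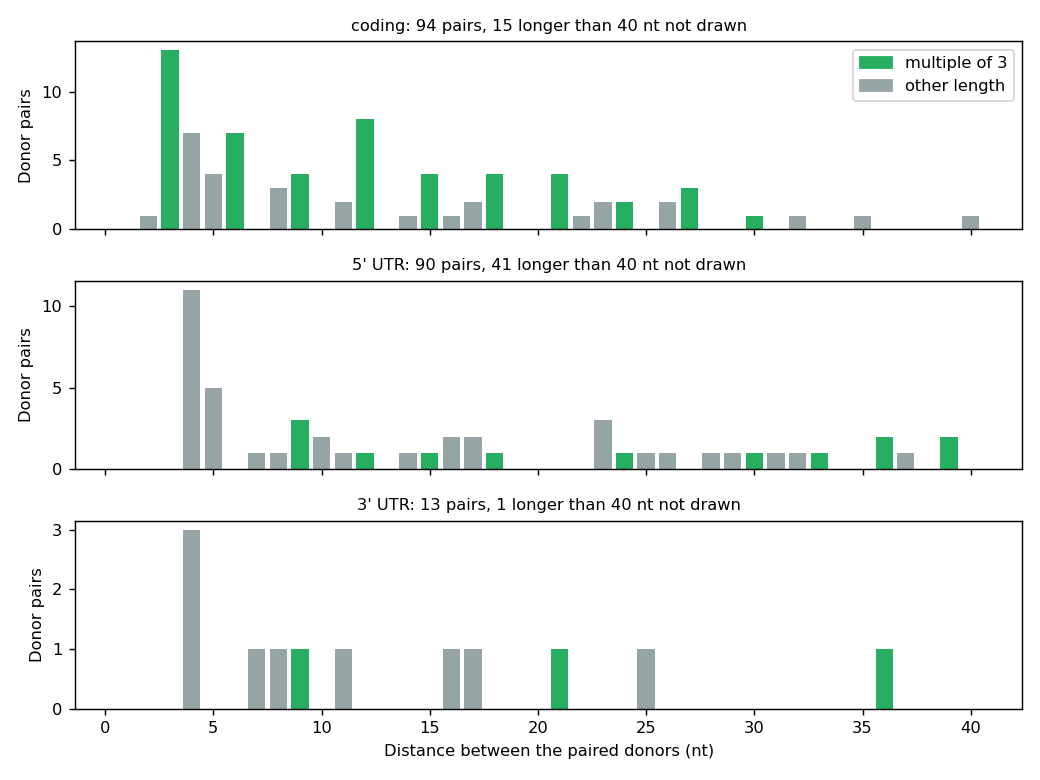
Number of donor pairs by the distance between the proximal and distal donor (nt) in coding regions, 5′ UTRs and 3′ UTRs, with multiples of 3 in green. In coding regions 13 pairs are 3 nt apart, and in 5′ UTRs 11 pairs are 4 nt apart and none 3 nt. Pairs over 40 nt apart are not drawn, and their number is given above each panel.

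The most frequent single distance was 4 bases, with 21 pairs, of which 7 were coding and 14 lay in UTRs. At this distance the first bases of the distal intron are positions 5 and 6 of the proximal one. In 14 of the 21 pairs positions 4 to 6 of the proximal intron were GGT, and in 9 the last exon bases before the distal donor were TAG. The wild-type share of the distal donor ran from 2.94 to 89.6% with a median of 38.6%, although 15 of the 21 distal donors had the better match. EDA3, a DnaJ-like gene, had 3.99, 2.74 and 3.90% in *prp40c*, against 2.58, 2.47 and 3.77% in wild type. AT3G07760, with the same bases from the proximal GT to the 2nd base after the distal GT, had 36.3, 28.4 and 34.1% in *prp40c*, against 39.7, 39.5 and 40.0% in wild type. AT1G10590 had 12.1, 3.49 and 1.99% in *prp40c*, against 8.19, 6.95 and 7.03% in wild type, and its mutant libraries lay on both sides of the wild-type ones. Of the 21 pairs, 1 in each direction had an unadjusted p below 0.05, beside 3.2% higher and 4.2% lower of all events and 15.1% of the 199 pairs in either direction.

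In 3 cases a pair of genes of one family had the same 12 bases across both donors, and MMZ3 and B ALPHA are named for this, after the values were seen. UEV1D-4 shared them with MMZ3, a ubiquitin-conjugating enzyme variant of the same kind, whose distal share was 45.4, 40.2 and 50.3% in *prp40c*, against 43.1, 41.7 and 39.6% in wild type. ATB BETA shared them with B ALPHA, another B subunit of protein phosphatase 2A, with 72.2, 78.1 and 75.3% in *prp40c*, against 68.8, 60.7 and 72.04% in wild type. MMZ3 overlapped between the genotypes and B ALPHA did not, with adjusted p-values of 0.859 and 0.763 (edgeR). CKB3 and CKB4, regulatory subunits of casein kinase II, form the third case, with a GC proximal donor. CKB3 used the distal GT in 35.2, 44.9 and 41.8% of reads in *prp40c*, against 34.0, 37.5 and 35.7% in wild type, and CKB4 in 59.5, 47.9 and 59.2% in *prp40c*, against 53.5, 62.3 and 61.8% in wild type. Every CKB4 library was above every CKB3 library, although the bases of the pair are the same, and the genotypes overlapped in both genes. PIN4 and PIN7, auxin efflux carriers, each have a coding region of 12 bases, and the sequences at their donors were not compared. PIN7 had 24.0, 30.6 and 28.3% in *prp40c*, against 36.9, 28.5 and 31.8% in wild type, and PIN4 had 59.0, 52.4 and 53.4% in *prp40c*, against 47.5, 50.5 and 44.0% in wild type. The adjusted p-values were 0.788 and 0.764 (edgeR).

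The match of each donor to the consensus was scored from 3 exon bases and 6 intron bases, as the sum of log2 ratios of each base's frequency among 92705 introns without an annotated event to 0.25, so that a higher score means a closer match. The median score was 5.89 for distal and 5.51 for proximal donors, and the distal donor had the better match in 105 pairs and the proximal donor in 92. Where the wild-type distal share was below 10%, the distal donor was the better match in 6 of 22 pairs (27.3%). The number was 51 of 94 from 10 to 50%, 31 of 61 from 50 to 90% and 17 of 22 (77.3%) above 90%. Between the end classes the match and the use of the distal donor therefore ran the same way, and in the middle classes about as many pairs had the better match on each side. Over the 199 pairs Pearson's r between score difference and wild-type share was 0.26 and Spearman's rho 0.23, a description of pairs that share libraries and base composition. Scored on the 6 intron bases alone, Pearson's r was 0.17. With the log2 change in *prp40c* the score difference had an r of 0.01. The 9 pairs with a GC proximal donor had a median distal share of 69.1% in wild type, and the 3 with a GC distal donor had 27.3 to 55.4%.

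By base, distal donors had G at position 5 of the intron in 43.7% of pairs and proximal donors in 50.3%, beside 51.2% of introns without an event. T at position 5 was found in 30.2% of distal and 23.1% of proximal donors, beside 19.9%. G as the last exon base was found in 68.8% of distal and 71.9% of proximal donors, beside 78.6%. Proximal donors had G at position 4 in 21.6% of pairs, distal donors in 7.04%, and introns without an event in 5.36%. Overlap of close donors set part of these frequencies. In the 13 pairs 3 bases apart, the distal GT is positions 4 and 5 of the proximal intron. In the 21 pairs 4 bases apart, the distal G is position 5, and in 14 of them position 4 was also G. The frequencies at these positions, and the match scores, therefore partly follow from the distance. No frequencies are given without these pairs.

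Among the 199 pairs, 11 of those with an unadjusted p below 0.05 had the higher and 19 the lower distal share in *prp40c*. The 11 higher pairs had a median distal score of 3.76 and proximal score of 4.47, and the 19 lower pairs had 6.11 and 5.05, beside 5.92 and 5.57 in the other 169 pairs. Within pairs, the median of the distal minus the proximal score was 0.95 in the higher, 0.77 in the lower and 0.14 in the other pairs. The distal donor was the better match in 6 of 11 higher, 12 of 19 lower and 87 of the other 169 pairs. By place, 4 of the higher pairs were coding and 7 in 5′ UTRs, and 8 of the lower pairs were coding, 6 in 5′ UTRs and 5 in 3′ UTRs. The 5 in 3′ UTRs came from 13 pairs, beside 30 of the 199 pairs (15.1%) and 7.4% of all events. In 10 of the 13 the mean share was lower in *prp40c*, beside 101 of the 199, and the genotypes did not overlap in 2 of the 13. The 5 included RH8, a DEAD-box RNA helicase-like gene, with 81.8, 89.5 and 94.9% in *prp40c*, against 96.5, 94.8 and 94.4% in wild type, where *prp40c* replicate 3 lay within the wild-type range. These groups were not tested against each other.

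**Figure D4:**
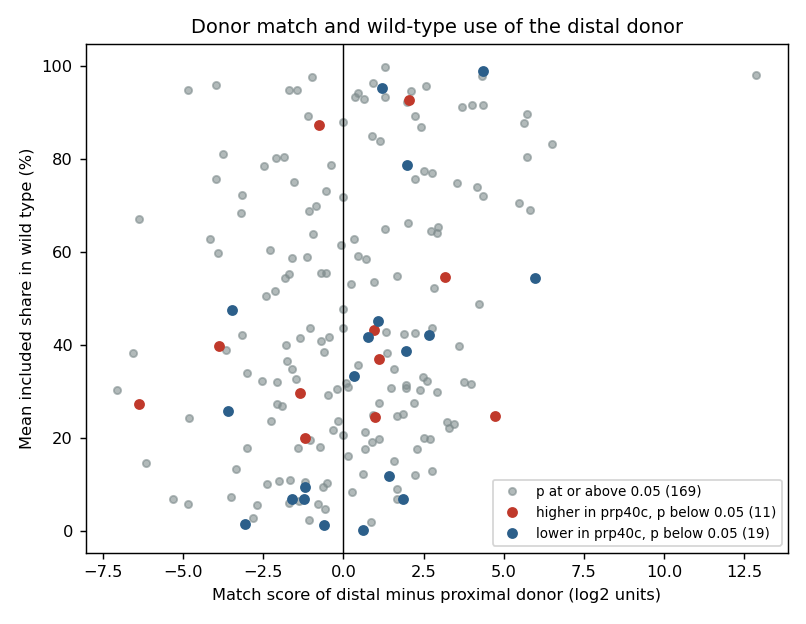
Mean included share in wild type (%) against the difference in match score, distal minus proximal donor (log2 units), for 199 donor pairs. Red and blue mark pairs with an unadjusted p below 0.05 and a higher (11) or lower (19) share in *prp40c*. The point at the far right has a proximal donor that matches poorly.

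The regions were grouped by words in the gene annotation, so a list misses genes whose annotation lacks the words. MAF1, APE2, TGA1 and SOS4, for example, are not in the flowering, chloroplast, defence and abiotic stress lists, in that order. The counts per list are of regions with an unadjusted p below 0.05, beside 3.2% higher and 4.2% lower of all events, and with so few regions in each list nothing particular to a list was read from them. The 9 RNA processing entries had 0 higher and 1 lower region, or 11.1% beside 7.4% of all events. Of these entries, AT1G53800 matched only by letters within the word muscle. AT3G27470 matched by its annotation as a lysine ketoglutarate reductase trans-splicing protein. Among the 3 entries with the most reads, ATU2AF65A, the large subunit of the U2 auxiliary factor that binds the 3′ end of introns, had 46.7, 60.6 and 55.0% in *prp40c*, against 50.8, 55.6 and 44.8% in wild type, and by its junctions is an acceptor pair. AT2G16940, a splicing factor whose junctions share no end, had 43.0, 43.4 and 46.3% in *prp40c*, against 50.3, 28.1 and 35.7% in wild type, and RH8 is given above. The median absolute difference of the list was 6.52 points. Its median SD between single libraries was 6.55 points in *prp40c* and 6.69 points in wild type, and the genotypes overlapped in all 9 regions.

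Kinases and phosphatases formed the largest list with 21 regions, of which 2 were higher (ATB BETA and SOS4) and 0 lower, or 9.52% beside 7.4% of all events. WNK1, a kinase without the usual catalytic lysine, has donors 2 bases apart and had distal shares of 98.6, 97.1 and 97.2% in *prp40c*, against 96.2, 97.5 and 99.0% in wild type. Transcription factors had 19 regions, 1 higher (TGA1) and 2 lower (AT1G72740 and WLIM2b), or 15.8% beside 11.4% of the 290 regions and 7.4% of all events. MAF1, a MADS-box gene of the flowering pathway, had 94.7, 96.0 and 96.9% in *prp40c*, against 93.1, 95.8 and 93.3% in wild type, and is an acceptor pair. Transport genes had 8 regions with 0 in either direction, including UMAMIT44 with 18.3, 8 and 13.8% in *prp40c*, against 8.77, 13.1 and 14.7% in wild type. AGO10 was among the 8 by the words iron transporter in its annotation, which also names a polynucleotidyl transferase.

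The other lists were small, and they count matched annotations, not all genes of these processes. Disease resistance and defence had 4 regions with 1 higher (AT1G52100), where the background is 3.2% higher, and 0 lower, 2 of the regions being in AT1G67700, whose annotation names multidrug resistance. EDR2, named for enhanced disease resistance of its mutants, had 2.27, 9.68 and 11.1% in *prp40c*, against 6.60, 13.8 and 12.2% in wild type. Light, clock and flowering had 2 regions: PIF3, a phytochrome-interacting factor, and AT1G31550, a lipase whose name matched by letters only. PIF3 had 35.4, 35.0 and 25.5% in *prp40c*, against 17.9, 23.5 and 50.0% in wild type, from 28 to 60 reads. Abiotic stress had 1 region, in AT1G60640, with 77.3, 78.2 and 65.1% in *prp40c*, against 81.2, 70.7 and 63.9% in wild type, and the chloroplast list held RCA alone.

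Expression of the host genes was compared separately. Of the 270 genes 5 passed the thresholds (edgeR, adjusted p below 0.05 with a log2 fold change beyond 0.58 in either direction), 4 higher and 1 lower in *prp40c*, which is 1.85% beside 3.67% of all 22182 genes tested (2.81% higher and 0.852% lower). PIF3, ACBP3, an acyl-CoA-binding protein, AT1G67900 and AT3G54500 rose, with log2 fold changes of 0.59, 1.10, 0.60 and 0.73, and AT1G01910 fell, with -1.11. None of the 5 was among the 33 genes with an unadjusted p below 0.05 for the included share. In AT1G67900, of the family of the phototropism protein NPH3, the included share averaged 46.6 ± 5.1% in *prp40c* and 55.6 ± 3.0% in wild type (SD, n = 3 each) without overlap, and the unadjusted p of the share was 0.242 (edgeR).

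At the read minimum, the members just inside were AT1G67700 and MAK10 with a mean of 5.33 excluded reads in the genotype with fewer, and ATCOAE with 5.67. Their included shares averaged 99.5, 84.5 and 79.6% in *prp40c*, and 99.8, 77.4 and 75.1% in wild type. The 7 regions just outside had 1.33 to 4.67 excluded reads in the genotype with fewer. The nearest, AT5G10710 and YSL3, had shares of 88.0 and 79.3% in *prp40c*, and 92.5 and 90.6% in wild type.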

How the data were processed

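Poly(A) RNA of 3 *prp40c-1* and 3 wild-type libraries was sequenced. The authors mapped the reads to TAIR10 (TopHat2 2.1.1 and SAMtools 1.3 in the submitters' processing notes) and deposited raw counts per gene and per junction, without normalization. In their junction table every row of the events has at least 6 reads in all libraries of one genotype. The authors' pooled inclusion values per genotype were not used. Neither the labels nor the methods state whether counting used strand, so counts of overlapping genes are uncertain.

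Included and excluded junction counts of 1095 events were tested with edgeR 4.0.16 (quasi-likelihood, R 4.3.3; effect of each library, interaction with genotype, equal library sizes), with Benjamini-Hochberg adjustment over all events. Genes averaging at least 10 counts in either genotype were tested with edgeR and TMM library sizes. Scripts were tested on simulated data. DESeq2 1.42.0 and the settings given at the end were alternatives. Shares are means of library percentages; floors are 3 counts.

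Strand, place and sequence come from RefSeq TAIR10.1, checked against the files' coordinates: 98.9% of 92705 introns begin with GT and end with AG. Named regions are the 10 with the smallest unadjusted p in each direction among those below 0.05 without overlap, the 8 with the most reads, 3 of each gene list by reads, 3 with a distance of 4 bases, and those at the read minimum; other names were chosen after their values were seen. The members and lists were chosen with earlier results of these data known. Replicates are biological per the study's methods.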

Additional observations from a re-analysis of the deposited data

How the results depend on the processing

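No region of the 290 passed the thresholds in the edgeR fit described, and 0 or 1 did under the other settings: AT4G19160 passed with DESeq2, with a minimum mean of 10 reads and with no minimum of reads (1 region each). Leaving out a replicate gave 0 to 2 regions. Without *prp40c* replicate 3 the region was AT1G72740, without wild-type replicate 3 it was AT1G67700, and without wild-type replicate 1 they were CA2 and UBQ14. The fitted log2 changes of AT1G67700 and UBQ14 rest on libraries at 0. Over all events, 2 passed in the main setting, 4 with DESeq2, 6 with no minimum and 2 to 6 without a replicate. At an unadjusted p below 0.05, DESeq2 gave 7 higher and 15 lower regions, and leaving out a replicate gave 7 to 13 higher and 14 to 19 lower. Of the 33 regions, 8 had such a p in every fit that left out a replicate, and all 33 kept their direction in every fit. The 33 were chosen by p on all libraries, and every fit reused most or all of these libraries. The kept direction is therefore no separate support. For AT4G19160 the log2 change was 1.66 with DESeq2, 1.65 with a minimum of 10 and 1.65 with none.

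Host genes passing numbered 3 to 7 when a replicate was left out, against 5. With a minimum mean of 10 reads, 21 regions had a wild-type share above 90%, against 33, fewer regions entering. The replicate numbers did not pair the samples, with correlations of same-numbered libraries of 0.01 to 0.03 over genes. With the replicate number as a block, 4 events and 0 of the 290 regions passed. The alternative without regions whose junctions share no end was chosen after seeing the data and moved none of these counts by over 1.5 times.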
